A study of Mus musculus with 9 samples.

Results

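The data are the transcript levels of 10 receptor chains through which cytokines polarize T cells, measured by RNA sequencing in induced regulatory T cells (labelled strain C57BL/6J). The members were chosen by gene symbol: Il12rb1, Il12rb2, Il18r1, Ifngr1, Il4ra, Il1rl1, Il6ra, Il6st, Il21r and Il27ra, which are 10 of the 28111 genes in the count table. All 10 were found, and all 10 were among the 14817 genes that passed the filter on low counts. Regulatory T cells are CD4 T cells that restrain immune responses and express the transcription factor Foxp3. Of the 9 libraries, 4 came from mice with a Glut1 transgene (Glut1Tg), Glut1 being the glucose transporter encoded by Slc2a1, and 5 from wild-type mice (WT). The labels also give a mouse group: group 1 holds WT replicates 1 and 3 and Glut1Tg replicates 2, 3 and 4, and group 2 holds WT replicates 2, 4 and 5 and Glut1Tg replicate 1. The sources used here do not give what separates the mouse groups, which promoter drives the transgene or how old the mice were. Nor do they say that each library is a separate animal or culture. The p-values therefore rest on how libraries differ among themselves, a difference that may be technical.

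Cytokine receptors of this kind let a CD4 T cell read its surroundings and choose a lineage. The hematopoietin and interferon receptors have no enzyme activity of their own: ligand binding brings together chains that carry Janus kinases, and these activate STAT transcription factors. Il12rb1 and Il12rb2 form the interleukin-12 receptor, which acts through STAT4, and Ifngr1 belongs to the interferon gamma receptor; both favour T helper 1 cells. Il4ra acts through STAT6 and favours T helper 2 cells. Il6ra with Il6st, Il21r and Il27ra act largely through STAT3. Il18r1 and Il1rl1, the receptors for interleukins 18 and 33, belong to the interleukin-1 receptor family and signal through Myd88 instead.

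Total counts ranged from 20881035 to 31196428 per library. Levels are given as CPM, counts relative to library totals scaled by TMM, a normalization that sets aside genes with extreme differences. Slc2a1, which checks the genotype labels, had means of 373 ± 121 CPM over 4 Glut1Tg and 42.1 ± 12.6 CPM over 5 WT libraries (SD), with no overlap. The labelled cell type was checked by its markers: the summed level of 8 T cell genes ranged from 3438 to 4673 CPM, Foxp3 was present in every library, and the B cell list summed to at most 9.67 CPM. The list of 6 regulatory T cell genes summed to 1927 to 5029 CPM. From mouse group 1 to 2 its genes went both ways, with mean CPM of 334 and 1608 for Il2ra, 185 and 328 for Tnfrsf18, and 577 and 368 for Ctla4. WT replicate 2 and Glut1Tg replicate 1 stood apart in Mki67, a gene of dividing cells, with 1621 and 1652 CPM where the other 7 held 346 to 808. Glut1Tg replicate 3 stood apart in genes of other blood cells: its mast cell and basophil list summed to 2609 CPM (93.5 to 859 in the other 8), its macrophage, neutrophil and dendritic cell list to 478 (7.30 to 48.8) and its erythroid and platelet list to 1018 (4.12 to 272). In such bulk libraries, fewer cells of a type and less RNA per cell cannot be told apart.

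Genes of this set differ in length, so levels were set against each other as CPM per kilobase of annotated exon. Ifngr1, the ligand-binding chain of the interferon gamma receptor, led at 129.9 ± 37.8 CPM per kilobase (SD, n = 9) and lay above the next gene in 9 of 9 libraries. Il21r (47.5 ± 9.15), Il4ra (45.6 ± 12.7) and Il27ra (39.1 ± 6.56 CPM per kilobase) followed. These neighbours did not separate, since Il21r lay above Il4ra in 4 of 9 libraries and Il4ra above Il27ra in 6 of 9. Il6ra (29.2 ± 8.94), Il6st (24.7 ± 9.63) and Il18r1 (22.8 ± 9.30) came next, with overlapping ranges. Il18r1 lay above Il12rb1, the next gene, in 9 of 9 libraries. Il12rb1 (3.81 ± 2.64), Il1rl1 (3.48 ± 3.69) and Il12rb2 (1.69 ± 1.88 CPM per kilobase) were the lowest. The SD of Il1rl1 and Il12rb2 exceeded their mean.

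The upstream sequences that follow belong to the 3 genes whose levels the results turn on. Il1rl1 and Il18r1 are neighbours on the plus strand of chromosome 1, with 136 bases between them and no protein-coding gene in between. Their levels did not follow each other across the libraries, and the stretch between them is printed whole as RefSeq bounds it. Il12rb2 is the member of the interleukin-12 receptor that varied most. The table of RefSeq upstream sequences used here (build GRCm38.p6, which is mm10) matched 8 of the 10 members. Capitals mark matches, on either strand, to AGATAA, the core letters bound by GATA factors, and to TTCNNNGAA, the letters of a STAT site; TGANTCA, the letters of an AP-1 site, was also searched and had no match in them.

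Il1rl1, 250 bases before its first start (chr1:40429320-40429569, plus strand): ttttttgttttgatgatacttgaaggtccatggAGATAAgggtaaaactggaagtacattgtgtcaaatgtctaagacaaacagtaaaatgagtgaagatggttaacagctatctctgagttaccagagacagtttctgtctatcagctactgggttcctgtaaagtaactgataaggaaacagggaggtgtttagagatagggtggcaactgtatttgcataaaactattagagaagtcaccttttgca
Il18r1, the 133 bases from the end of Il1rl1 to its first start (chr1:40465419-40465551, plus strand): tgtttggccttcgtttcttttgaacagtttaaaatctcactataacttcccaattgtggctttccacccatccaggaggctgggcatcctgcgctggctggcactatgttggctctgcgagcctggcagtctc
Il12rb2, 250 bases before its start (chr6:67376189-67376438, minus strand): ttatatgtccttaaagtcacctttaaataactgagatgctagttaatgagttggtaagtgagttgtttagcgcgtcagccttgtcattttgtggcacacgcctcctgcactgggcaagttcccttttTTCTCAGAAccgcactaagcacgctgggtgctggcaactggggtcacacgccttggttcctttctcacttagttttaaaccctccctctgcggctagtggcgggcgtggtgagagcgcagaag

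Of 32851 promoter windows of 250 bases, 9.99% held AGATAA, 7.02% held TTCNNNGAA and 6.75% held TGANTCA. For windows of 133 bases, the length of the Il18r1 stretch, the shares were 4.92% for AGATAA, 3.59% for TTCNNNGAA and 3.77% for TGANTCA. Among the 11 windows before starts of the members, 3 held AGATAA (both starts of Il1rl1 and that of Il6ra), 2 held TTCNNNGAA (the third start of Il18r1 and that of Il12rb2) and 0 held TGANTCA. A match describes the letters of a window and is not evidence that a factor binds there.

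Between genotypes, none of the 10 receptor genes passed the test. The model held mouse group and genotype as terms, and 0 of 10 members were called by edgeR's quasi-likelihood test at an adjusted p under 0.05, where the background was 0.00675% of all genes tested (1 of 14817, Slc2a1). At an unadjusted p under 0.05 there were 0 of 10 members, against a background of 6% (4.5% higher and 1.5% lower). Genotypes were without overlap for 0 of 10 members, against a background of 1.59% (1.01% higher and 0.58% lower). In Glut1Tg 5 members had a positive and 5 a negative log2 fold change, with a median of -0.07, beside 0.02 over all genes tested. The median SE over all genes was 0.25 on the log2 scale, so modest differences in 1 gene were not detectable with these libraries.

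Between mouse groups, Il18r1 and Il12rb1 passed as higher in mouse group 2 and no member passed as lower. These were 2 of 10 members called by edgeR, beside a background of 24.1% of all genes tested (13.1% higher and 11% lower), so the share is near the background and is not a result about these receptors as a set. At an unadjusted p under 0.05 there were 4 higher and 1 lower, against a background of 39.4% (21% higher and 18.4% lower). The median log2 fold change of the members was -0.21, beside -0.01 over all genes tested. Libraries of the mouse groups did not overlap for 1 of 10 members, Il18r1, against a background of 21.8% (10.5% higher and 11.4% lower). The number of genes called over the whole table moved from 3576 to 668 without Glut1Tg replicate 1, and to 1916, 2134 and 1966 without WT replicates 1, 2 and 3. Glut1Tg replicate 1 is the only Glut1Tg library of mouse group 2. In every fit without it, the mouse group term compares WT libraries only, which is a different and smaller comparison.

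**Figure D1:**
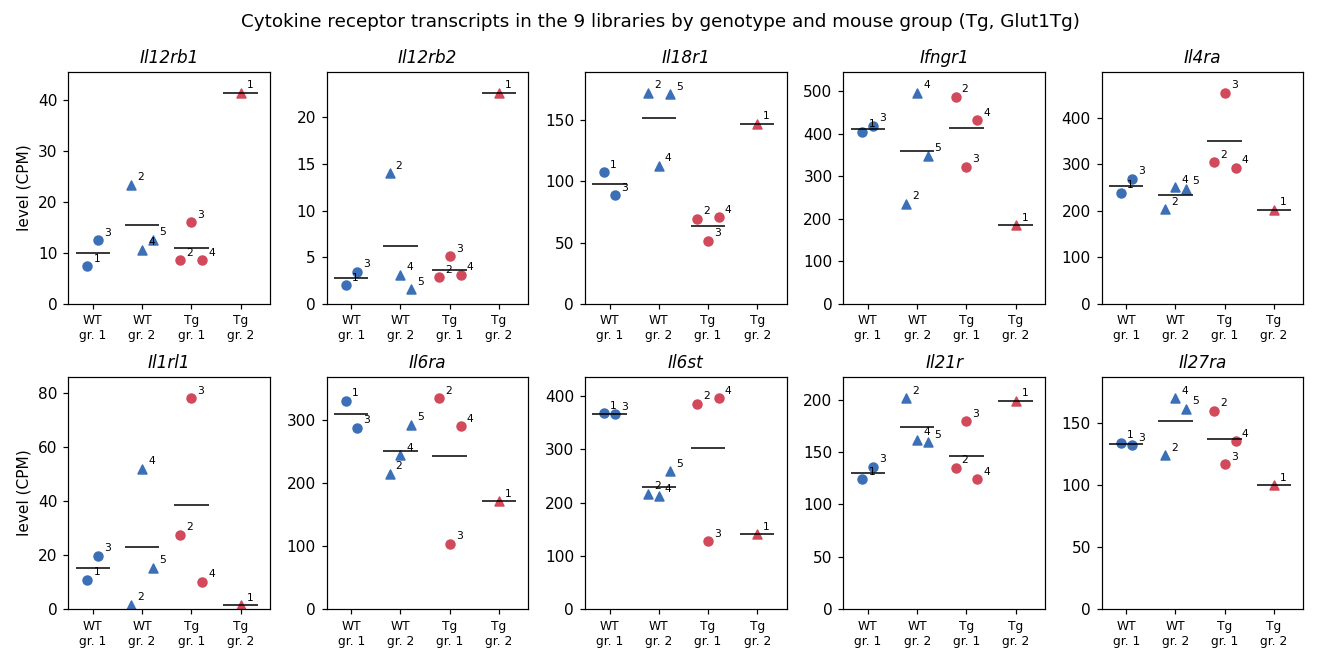
Level in CPM (vertical axes, from 0) of each receptor gene in each library, by genotype (blue WT, red Glut1Tg) and mouse group (triangles, group 2); points are libraries labelled with their replicate number, and lines are means. Il18r1 is the gene whose 4 libraries of mouse group 2 (113 to 172 CPM) all lie above the 5 of mouse group 1 (51.6 to 107), while Il12rb2 is high in WT replicate 2 (14.0) and Glut1Tg replicate 1 (22.6).

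**Figure D2:**
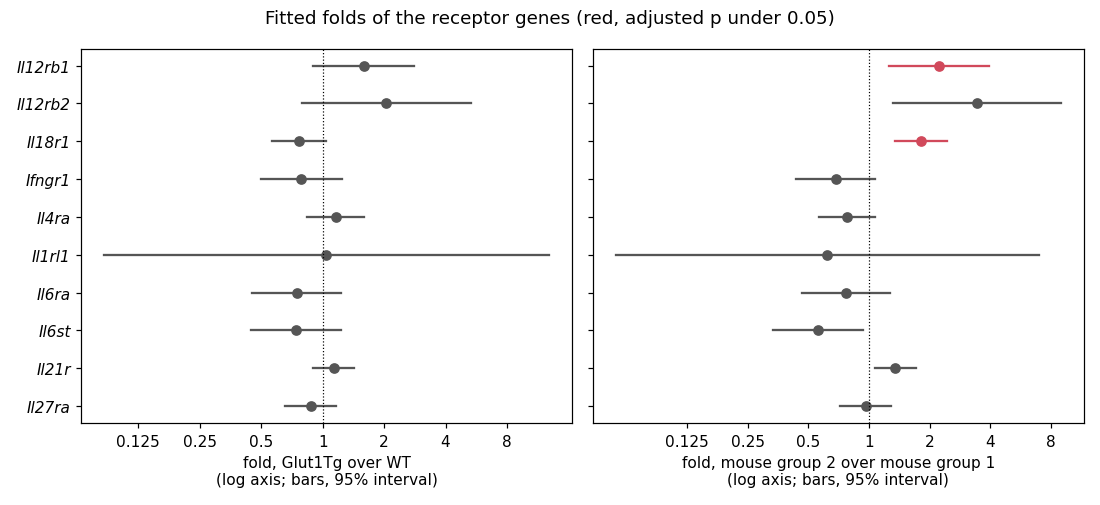
Fitted folds of the 10 genes on a log axis, Glut1Tg over WT on the left and mouse group 2 over mouse group 1 on the right; points are estimates, bars are 95% intervals and red marks an adjusted p under 0.05. Il18r1 (1.81-fold) and Il12rb1 (2.24-fold) passed between mouse groups, and the interval of Il1rl1 is the widest in both panels.

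The chains of the receptors that favour T helper 1 cells are described first. Il12rb1 (ENSMUSG00000000791, chromosome 8, 70808449 to 70821424, plus strand, mm10) encodes the chain that the receptors for interleukins 12 and 23 share. It stood at 7.39, 23.3, 12.5, 10.6 and 12.5 CPM over WT replicates 1 to 5, and at 41.4, 8.50, 16.0 and 8.50 CPM over Glut1Tg replicates 1 to 4. Glut1Tg replicate 1 and WT replicate 2 were the highest, and the ranges of both genotypes and of both mouse groups overlapped. Il12rb1 rose 2.24-fold in mouse group 2 over mouse group 1 (95% interval 1.26 to 3.95; 1.16 ± 0.37 as log2 fold and SE; edgeR adjusted p = 0.0466). That call was lost without Glut1Tg replicate 1 (log2 0.63, edgeR adjusted p = 0.426), Glut1Tg replicate 2 (0.0816), Glut1Tg replicate 4 (0.0833), WT replicate 1 (0.104) or WT replicate 2 (0.107), and without both libraries of high Mki67 the log2 fold change was 0.23 (edgeR adjusted p = 0.782). With the replicate number as a block the log2 fold change was 1.65 (edgeR adjusted p = 0.0568). The call held in 8 of 17 alternatives, and the direction in all 17. Over WT, the fitted fold of Glut1Tg was 1.59 (95% interval 0.901 to 2.81; edgeR adjusted p = 0.681).

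Il12rb2 (ENSMUSG00000018341, chromosome 6, 67291318 to 67376188, minus strand) encodes the chain that pairs with Il12rb1 to make the interleukin-12 receptor. Its level was 1.99, 14.0, 3.45, 3.10 and 1.57 CPM over WT replicates 1 to 5, and 22.6, 2.83, 5.11 and 3.08 CPM over Glut1Tg replicates 1 to 4. In counts these were 43 to 598 per library. The same libraries as for Il12rb1, Glut1Tg replicate 1 and WT replicate 2, were high, and the other 7 lay between 1.57 and 5.11 CPM. The fold of mouse group 2 over 1 was 3.45 (95% interval 1.32 to 8.99; edgeR adjusted p = 0.0618), and it was 2.05 for Glut1Tg over WT (95% interval 0.792 to 5.31; edgeR adjusted p = 0.681). Without both libraries of high Mki67 the mouse group difference turned to -0.21 on the log2 scale (edgeR adjusted p = 0.852); it passed without WT replicate 4 (edgeR adjusted p = 0.0373) or WT replicate 5 (0.0227). Exons of Serbp1 on the opposite strand share 1519 of the 3794 exon bases of Il12rb2. The libraries were stranded, but the sources used here give no strand setting for the counting. How reads were assigned there is therefore not known. Opposite-strand exons also share 571 bases with Il4ra, 242 with Il6ra and 2 with Il27ra.

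Il18r1 (ENSMUSG00000026070, chromosome 1, 40465552 to 40500854, plus strand) encodes the ligand-binding chain of the interleukin-18 receptor, which works beside interleukin-12 in raising interferon gamma. WT replicates 1 to 5 held 107, 172, 88.7, 113 and 171 CPM, and Glut1Tg replicates 1 to 4 held 147, 69.4, 51.6 and 70.5 CPM. Every library of mouse group 2 lay above every library of mouse group 1, whereas the genotypes overlapped. Il18r1 rose 1.81-fold in mouse group 2 (95% interval 1.34 to 2.45; 0.86 ± 0.19 as log2 fold and SE; edgeR adjusted p = 0.0144), from 77.5 ± 21.2 CPM in group 1 (SD, n = 5) to 150.7 ± 27.8 CPM in group 2 (SD, n = 4). The call was lost without Glut1Tg replicate 1 (log2 0.63, edgeR adjusted p = 0.177), without both libraries of high Mki67 (0.54, edgeR adjusted p = 0.28), without these and Glut1Tg replicate 3 (0.54, edgeR adjusted p = 0.0793) and with the replicate number as a block (0.68, edgeR adjusted p = 0.132). Without Glut1Tg replicate 1 the mouse groups are compared in WT libraries only. Leaving out Glut1Tg replicate 3 as well could thus hardly move the log2 fold change. The call held in the other 13 of 17 alternatives, and the direction in all 17.

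Across genotypes Il18r1 had a fitted fold of 0.762 in Glut1Tg over WT (95% interval 0.563 to 1.03; edgeR adjusted p = 0.681). Within mouse group 1 the 3 Glut1Tg libraries (51.6, 69.4 and 70.5 CPM) lay below both WT libraries (88.7 and 107 CPM). There the log2 fold change was -0.62 (SE 0.20; edgeR adjusted p = 0.91). In mouse group 2 the Glut1Tg library, at 147 CPM, lay between the WT libraries. Genotypes did not overlap within mouse group 1 for 2 of 10 members, Il18r1 and Il4ra, against a background of 22.2% (11.9% higher and 10.4% lower). The log2 fold change between genotypes was negative in all 19 alternatives, from -0.64 to -0.29, and none passed. Some of these alternatives compare the same libraries.

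Ifngr1 (ENSMUSG00000020009, chromosome 10, 19591949 to 19610229, plus strand) had 405, 235, 419, 496 and 348 CPM over WT replicates 1 to 5, and 184, 487, 322 and 432 CPM over Glut1Tg replicates 1 to 4. The libraries of high Mki67 were the lowest, and WT replicate 4 and Glut1Tg replicate 2 the highest. The fitted fold was 0.683 for mouse group 2 over 1 (95% interval 0.433 to 1.08; edgeR adjusted p = 0.194) and 0.786 for Glut1Tg over WT (95% interval 0.499 to 1.24; edgeR adjusted p = 0.708). Without WT replicate 4 it passed between mouse groups as lower in group 2 (log2 -0.77, edgeR adjusted p = 0.0375), and without both libraries of high Mki67 its log2 difference was 0.04. Its partner chain Ifngr2, required for signalling, fell in mouse group 2, from 116.8 ± 18.1 to 68.9 ± 6.80 CPM (fold 0.558; edgeR adjusted p = 0.00562).

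Turning to receptors of type 2 cytokines, Il4ra (ENSMUSG00000030748, chromosome 7, 125552120 to 125579474, plus strand) binds interleukin-4 and, with another chain, interleukin-13. It stood at 238, 204, 269, 251 and 247 CPM over WT replicates 1 to 5, and at 202, 304, 454 and 292 CPM over Glut1Tg replicates 1 to 4. Glut1Tg replicate 3, the library with the most mast cell, myeloid and platelet transcripts, was the highest; the part of those cells in this value was not tested. Within mouse group 1 the 3 Glut1Tg libraries lay above both WT libraries (log2 fold change 0.46, SE 0.24; edgeR adjusted p = 0.91), and in mouse group 2 the Glut1Tg library was the lowest of 4. Over all libraries the fold of Glut1Tg over WT was 1.16 (95% interval 0.842 to 1.60; edgeR adjusted p = 0.737), and without Glut1Tg replicate 3 the log2 fold change was 0.04. Between mouse groups the fold was 0.776 (95% interval 0.562 to 1.07; edgeR adjusted p = 0.219).

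Il1rl1 (ENSMUSG00000026069, chromosome 1, 40429570 to 40465415, plus strand) encodes ST2, the interleukin-33 receptor, which is carried by a subset of regulatory T cells, by T helper 2 cells and at high level by mast cells and basophils. Its level was 10.8, 1.66, 19.6, 51.8 and 15.3 CPM over WT replicates 1 to 5, and 1.32, 27.4, 77.9 and 10.2 CPM over Glut1Tg replicates 1 to 4. It had the widest range of the members, 58.9-fold between libraries (35 to 1951 counts), and 99.1% of all genes tested had a lower SD of log2 CPM. By CV it came after Il12rb2 (106% against 111%). Neither genotype (fold 1.04, 95% interval 0.0844 to 12.9; edgeR adjusted p = 0.99) nor mouse group (fold 0.62, 95% interval 0.0554 to 6.94; edgeR adjusted p = 0.768) passed, and the direction between genotypes turned without Glut1Tg replicate 3 (log2 -0.99) and in other alternatives.

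The libraries rich in Il1rl1 were rich in mast cell transcripts, and also in those of other blood cells. Cpa3, a protease stored in mast cell granules, stood at 1670.0 CPM in Glut1Tg replicate 3, 524 in WT replicate 4, 364 in Glut1Tg replicate 2 and 286 in WT replicate 3, which are the 4 libraries of highest Il1rl1 in the same order. Cpa3 was lowest in WT replicate 2 (2.48) and Glut1Tg replicate 1 (3.56), which held the lowest Il1rl1. Between these lay Glut1Tg replicate 4 (116 CPM), WT replicate 1 (151) and WT replicate 5 (91.3). Per 100 CPM of Cpa3 there were 4.67 to 16.7 CPM of Il1rl1 in the 7 libraries, and 37.2 and 67.2 in the libraries where Cpa3 was nearly absent. Fcer1a, a chain of the high-affinity IgE receptor, ranged from 0.406 to 261 CPM and was at its lowest and highest in WT replicate 2 and Glut1Tg replicate 3. The full mast cell and basophil list of 12 genes, which includes Kit at 79.6 to 146 CPM in every library, summed to 93.5 to 2609 CPM in Glut1Tg and 128 to 859 in WT, and 8 to 12 of its genes had a count in each library. Kit did not follow Il1rl1, at 124 CPM in WT replicate 2 and 116 in Glut1Tg replicate 3. The erythroid and platelet list was likewise highest in Glut1Tg replicate 3 (1018 CPM) and WT replicate 4 (272). It was lowest in WT replicate 2 (4.87) and Glut1Tg replicate 1 (4.12). For the macrophage, neutrophil and dendritic cell list these libraries held 478, 48.8, 13.1 and 7.30 CPM, again the highest and lowest. How much of the Il1rl1 signal came from any of these cells was not tested.

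**Figure D3:**
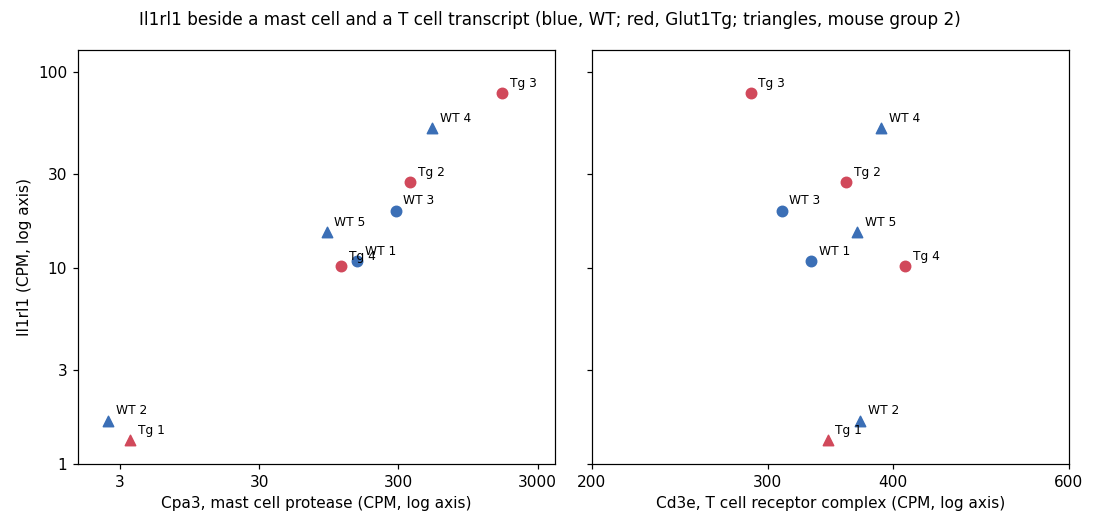
Il1rl1 in CPM (vertical log axis) against the mast cell protease Cpa3 (left) and the T cell gene Cd3e (right), both in CPM on log axes; points are libraries, blue WT and red Glut1Tg, triangles mouse group 2. Il1rl1 spans 1.32 to 77.9 CPM and Cpa3 2.48 to 1670.0, while Cd3e stays between 288 and 411 CPM.

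The gene cluster on chromosome 1 holds Il1r2, Il1r1, Il1rl2, Il1rl1, Il18r1 and Il18rap in that order. Il18rap, the accessory chain of the interleukin-18 receptor, had 9.14, 19.5, 9.30, 7.14 and 11.2 CPM over WT replicates 1 to 5, and 24.2, 5.37, 13.8 and 6.23 over Glut1Tg replicates 1 to 4. It was thus highest in the libraries of high Mki67, and its fold of mouse group 2 over 1 was 1.84 (95% interval 0.997 to 3.40; edgeR adjusted p = 0.129). In Glut1Tg replicate 3 log2 CPM lay 2.61 from its mean for Il1rl1 and -0.98 for Il18r1. In WT replicate 2 the distances from the mean were -2.88 for Il1rl1 and 0.76 for Il18r1. Il1r1, the receptor that signals for interleukin-1, fell in mouse group 2 (fold 0.388, edgeR adjusted p = 0.0481). When 1 library was left out, that call held only without Glut1Tg replicate 3 (edgeR adjusted p = 0.0259) or WT replicate 4 (0.0184).

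**Figure D4:**
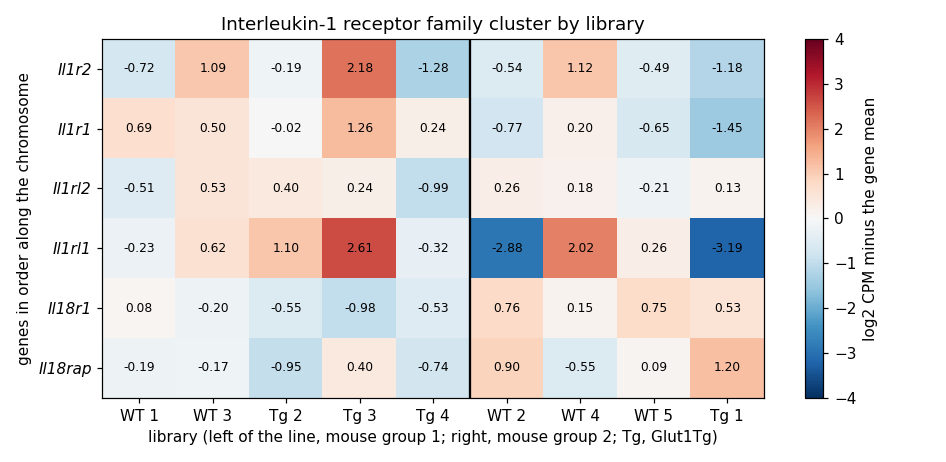
Log2 CPM of the 6 genes of the interleukin-1 receptor cluster, each minus its mean over 9 libraries (colour and number), with libraries in columns and mouse groups separated by the line. Il1rl1 spans -3.19 to 2.61 and its neighbour Il18r1 spans -0.98 to 0.76, with opposite signs in 4 of the 5 libraries of mouse group 1 and 2 of the 4 of mouse group 2.

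The chains of the interleukin-6 receptor are described together. Il6ra (ENSMUSG00000027947, chromosome 3, 89864059 to 89913196, minus strand) binds interleukin-6, which with TGF-beta steers CD4 T cells away from the regulatory and toward the T helper 17 fate. WT replicates 1 to 5 held 331, 215, 288, 244 and 293 CPM of Il6ra, and Glut1Tg replicates 1 to 4 held 171, 335, 103 and 290.2 CPM. Il6st (ENSMUSG00000021756, chromosome 13, 112464070 to 112510086, plus strand) encodes gp130, the signalling chain shared by the receptors of interleukins 6, 11 and 27 and of Lif and Osm. Its level was 368, 216, 366, 212 and 259 CPM over WT replicates 1 to 5, and 140.4, 385, 127 and 396 CPM over Glut1Tg replicates 1 to 4. Both chains were lowest in Glut1Tg replicates 3 and 1, and the remaining libraries lay at 212 CPM or more for either chain. Neither differed between genotypes, with folds of 0.744 for Il6ra (95% interval 0.452 to 1.23; edgeR adjusted p = 0.689) and 0.738 for Il6st (95% interval 0.444 to 1.23; edgeR adjusted p = 0.689).

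Without both libraries of high Mki67 and Glut1Tg replicate 3, the log2 fold changes between genotypes were 0.00 for Il6ra and 0.08 for Il6st. Il6st had a fold of 0.558 in mouse group 2 over 1 (95% interval 0.335 to 0.930; edgeR adjusted p = 0.089). It passed as lower in mouse group 2 without Glut1Tg replicate 3 (log2 -0.94, edgeR adjusted p = 0.00807), and without the 3 libraries that stood apart (log2 -0.63, edgeR adjusted p = 0.0104). For Il6ra the fold was 0.768 (95% interval 0.466 to 1.27; edgeR adjusted p = 0.408). The transcript of the ligand Il6 reached 13.9 CPM in Glut1Tg replicate 3 and 5.76 in WT replicate 4, and lay between 0.189 and 1.83 CPM in the others.

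Il21r (ENSMUSG00000030745, chromosome 7, 125603429 to 125633570, plus strand), whose ligand interleukin-21 sustains follicular helper and T helper 17 cells, is the next gene after Il4ra on the chromosome, 23954 bases away. The WT libraries held 124, 202, 136, 162 and 159 CPM in replicates 1 to 5, and the Glut1Tg libraries 199, 135, 179.5 and 124 CPM in replicates 1 to 4. All 4 libraries of mouse group 2 lay above 4 of the 5 libraries of mouse group 1, the exception being Glut1Tg replicate 3. The fold of mouse group 2 over 1 was 1.35 (95% interval 1.07 to 1.70; edgeR adjusted p = 0.063), and without Glut1Tg replicate 3 it passed (log2 0.51, edgeR adjusted p = 0.0147). Between genotypes the fold was 1.13 (95% interval 0.896 to 1.43; edgeR adjusted p = 0.708).

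Il27ra (ENSMUSG00000005465, chromosome 8, 84030294 to 84042589, minus strand) pairs with Il6st to bind interleukin-27, a cytokine that restrains T helper 17 cells. It had the lowest CV of the 10, at 16.8% over the 9 libraries. The levels were 134, 124, 132, 169.7 and 161 CPM over WT replicates 1 to 5, and 99.6, 159.6, 117 and 135 CPM over Glut1Tg replicates 1 to 4. The groups overlapped throughout. The fold was 0.872 for Glut1Tg over WT (95% interval 0.653 to 1.16; edgeR adjusted p = 0.734) and 0.965 for mouse group 2 over 1 (95% interval 0.722 to 1.29; edgeR adjusted p = 0.854).

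Whether a genotype difference itself differed between mouse groups was tested with an interaction term, which rests on 1 Glut1Tg library in mouse group 2. By edgeR 0 of 10 members were called (0 of 14817 genes, background 0%), and DESeq2 called 2 genes over the whole table. At an unadjusted p under 0.05 edgeR had 1 of 10 members, against a background of 5.3% (1.23% higher and 4.08% lower). That member was Il1rl1 (log2 -5.45, SE 2.30; edgeR adjusted p = 0.741), for which the lone Glut1Tg library of mouse group 2 stood at 1.32 CPM and the 3 of mouse group 1 averaged 38.5 CPM.

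The wider pathway was examined through lists of genes around the members, in each of which 0 genes passed between genotypes. Between mouse groups, 0 of 6 tested partner chains rose and 2 fell: Ifngr2, given above, and Il23r (0.885 ± 0.418 CPM in group 1, 0.213 ± 0.147 in group 2, edgeR adjusted p = 0.0487), which pairs with Il12rb1 to bind interleukin-23. Il23r was scarce, at 0.113 to 1.34 CPM. When 1 library was left out, its call held only without WT replicate 4 (edgeR adjusted p = 0.0149). Il2rg, the common gamma chain that Il4ra and Il21r use, held 296 to 376 CPM and did not pass. Of 21 tested receptors of the same families 3 rose and 5 fell. The risers were Il2ra (334 ± 59.1 to 1608 ± 1257 CPM) and Il2rb (431 ± 93.2 to 714 ± 172), chains of the interleukin-2 receptor, and Il10rb (45.4 ± 5.08 to 65.4 ± 3.90). Il1r1, Il10ra, Il17ra, Il15ra and Il20rb fell, among them Il10ra, the ligand-binding chain for interleukin-10 (214 ± 81.4 to 110.3 ± 17.4 CPM; edgeR adjusted p = 0.046).

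Of 11 tested kinases and adaptors 0 rose and 3 fell: Jak2, the kinase of the interleukin-12 and interferon gamma receptors (264 ± 39.9 to 169.9 ± 27.2 CPM; edgeR adjusted p = 0.0108), Traf6, an adaptor downstream of Myd88 (561 ± 65.9 to 221 ± 59.8; edgeR adjusted p = 0.0041), and Irs2, an adaptor of the interleukin-4 receptor (59.9 ± 13.0 to 16.3 ± 2.12; edgeR adjusted p = 0.0012). Among STAT factors, Stat6, which the interleukin-4 receptor uses, rose (199 ± 42.3 to 305 ± 10.7 CPM; edgeR adjusted p = 0.0432) and Stat5a fell (336 ± 48.1 to 236 ± 16.1; edgeR adjusted p = 0.027). Stat4 and Stat3 did not pass. These are means ± SD over 5 libraries of mouse group 1 and 4 of mouse group 2.

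Among 18 feedback inhibitors, genes that switch off receptor signals, 2 rose and 3 fell. The risers were Socs5 and the phosphatase gene Ptpn6 (150.3 ± 24.1 to 331 ± 110.3 CPM), and Socs6, Ptpn2 and Pias1 fell. Of 17 ligands of the members only 8 were expressed enough to be tested, and 1 rose, Ifng, at 1.32 ± 0.498 CPM in group 1 and 3.31 ± 1.73 in group 2 (edgeR adjusted p = 0.0287). Il18, Il12b, Il27 and Il33 were among the 9 ligands left out by the filter on low counts. Of 14 lineage transcription factors 2 rose, Tbx21, the T helper 1 factor (1.36 ± 0.865 to 6.71 ± 7.21 CPM; edgeR adjusted p = 0.012), and Runx3, and 4 fell: Rora, Bcl6, Ahr and Batf. Tbx21 was highest in Glut1Tg replicate 1 (17.1 CPM) and WT replicate 2 (5.88 CPM), the libraries highest in Il12rb1 and Il12rb2. Il2ra, Lif and Osm were also highest in these libraries, and 22.6% of all genes tested were highest in Glut1Tg replicate 1. Of 11 tested receptor targets 2 rose, Ifng and the chemokine receptor gene Ccr4 (11.4 ± 1.93 to 68.2 ± 48.7 CPM), and 0 fell. These counts are read beside the background of 13.1% higher and 11% lower.

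Most of these pathway calls were lost without Glut1Tg replicate 1, where the calls over all genes tested went from 3576 to 668. That fit, and the fit without both libraries of high Mki67, compare the mouse groups in WT libraries only. The part of the smaller comparison in the loss was not tested. The 668 need not all be among the 3576, so they give no share of calls kept to set beside these lists. Of 29 genes of the lists called between mouse groups, 7 were still called without Glut1Tg replicate 1, and 17, 18 and 17 without WT replicates 1, 2 and 3. Without both libraries of high Mki67 6 were still called, where the calls over all genes tested went from 3576 to 593. Irs2, Traf6, Socs6, Ahr, Rora and Il15ra were among those that held in each fit that left out 1 library, and all of these but Il15ra also held without both libraries. Without Glut1Tg replicate 1 the log2 fold change of Ifngr2 went from -0.84 to -0.81 (edgeR adjusted p = 0.0549) and that of Jak2 from -0.74 to -0.65 (edgeR adjusted p = 0.11). It went from 2.53 to 1.90 for Tbx21 (edgeR adjusted p = 0.172), from 2.32 to 1.69 for Il2ra (0.176) and from 1.44 to 1.00 for Ifng (0.287). The direction of these 5 genes was kept.

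Genes whose profile over the 9 libraries was most like that of a member were found by the root mean square difference of centred log2 CPM among 11250 genes, a description with no test. For Il1rl1 these were Arap3 (0.20), Csf2rb (0.22) and Rab27b (0.32), where the median gene differed by 1.91. Csf2rb encodes the shared chain of the receptors for interleukins 3 and 5 and GM-CSF, and stood at 193 CPM in Glut1Tg replicate 3 and 2.72 in both libraries of high Mki67. The nearest to Il12rb1 were Acot7 (0.14), Thop1 (0.14) and Smyd2 (0.16; median gene 0.80), and to Il12rb2 St5 (0.31), Slc30a2 (0.32) and Serpine2 (0.38). For Il18r1 they were Tubgcp4 (0.15), Mtcp1 (0.16) and Ankrd26 (0.17; median gene 0.67). Tnrc6b, a gene of the microRNA silencing machinery, was among the nearest 3 of both Il6ra (0.17) and Il6st (0.13). The single nearest genes of the others were Ogfr for Il4ra (0.07), Snrnp27 for Il21r (0.07), Zbtb24 for Il27ra (0.07) and Shisa5 for Ifngr1 (0.11).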

How the data were processed

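The 10 members and the gene lists were chosen with earlier results of these data known. Per the labels' protocols, libraries were stranded TruSeq mRNA libraries read as pairs. Per the submitters' processing notes, the authors used bcl2fastq, TopHat2, featureCounts and DESeq2 with mm10; the sources used here give no versions and no strand setting. The deposited counts are whole numbers per gene, not normalized. The deposited log2 values served 1 alternative, and their making is not stated. A column went to the sample whose title carries its genotype and number.

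edgeR 4.0.16 in R 4.3.3 filtered genes by genotype (filterByExpr, 14817 of 28111 kept), scaled by TMM, and fitted terms for mouse group and genotype by quasi-likelihood, with Benjamini-Hochberg adjustment at 0.05. Each SE was derived from the F statistic. The genotype term of the fit was tested on counts simulated with a genotype effect only. That test does not cover the mouse group or interaction terms. Alternatives used DESeq2 1.42.0, limma 3.58.1, other scaling, terms and filters, and fewer libraries with the same genes. Positions and exon lengths are from GENCODE M21 (mm10), matched by Ensembl ID for 27926 genes. Named genes are the members, genes of the lists that passed, others of highest mean CPM, and the 3 genes most similar to each member, at a mean of at least 1 CPM. Part of the STAT factor list is not reported here.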

Additional observations from a re-analysis of the deposited data

Results flagged for a closer look

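In 20 groups of 4 or 5 libraries (10 genes in 2 genotypes), the highest or lowest library was compared with the spread of the rest, which by chance marks about 5% of groups. It marked 2, both for Il12rb2. Glut1Tg replicate 1 held 22.6 CPM, and the other 3 Glut1Tg libraries held 2.83 to 5.11 CPM. WT replicate 2 held 14.0 CPM, and the other 4 WT libraries held 1.57 to 3.45 CPM. These are the 2 libraries of mouse group 2 with the highest Mki67, and the part of proliferation in the values was not tested. The comparison took no account of mouse group. Glut1Tg replicate 1 is the only Glut1Tg library of mouse group 2, so its mark cannot be told apart from a mouse group difference.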

How the results depend on the processing

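Fits without 3 libraries at once, and those of the pathway lists with libraries left out, were chosen after seeing the data. Between genotypes 1 gene was called, against 7 by DESeq2, 2 with no low count filter, 0 with a replicate block (568 at an unadjusted p under 0.05), 0 in mouse group 1 only (274), 0 without WT replicate 2 and Glut1Tg replicate 1 (401 at an unadjusted p under 0.05), 13 without these and Glut1Tg replicate 3, and 1 to 2 when 1 library was left out. Between mouse groups 3576 genes were called, against 0 with a replicate block (4470 at an unadjusted p under 0.05), 593 without WT replicate 2 and Glut1Tg replicate 1, and 668 to 4552 when 1 library was left out. For the interaction 0 were called, against 2 by DESeq2 and 0 to 123 when 1 library was left out; 123 was without WT replicate 2. Same-numbered libraries of the genotypes deviated from their genotype means with correlations over genes of -0.51, -0.59, 0.23 and -0.21 for numbers 1 to 4, and numbers 1, 2 and 4 join different mouse groups, so the number was not taken as a pairing.

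No member was called between genotypes in any of the 19 alternatives. The log2 fold change of Il18r1, Il12rb2 and Il4ra kept its direction in all 19. These were not 19 separate checks. Without Glut1Tg replicate 1, with or without WT replicate 2, the genotype term compares the same libraries as the fit in mouse group 1 only. Without WT replicate 2 and Glut1Tg replicates 1 and 3 the direction turned for Il12rb1 (-0.24), Il6ra (0.0012), Il6st (0.0778), Il21r (-0.0166), Il27ra (0.13) and Ifngr1 (0.14). It also turned for Il27ra and Ifngr1 in mouse group 1 only (0.0385 and 0.00072) and for Il27ra without WT replicate 2 and Glut1Tg replicate 1 (0.0169). For Il1rl1 it turned with limma-voom (-0.0807), a replicate block (-0.0618) and the deposited log2 values (-0.45). When 1 library was left out, Il27ra ranged from -0.31 to 0.017 and Il1rl1 from -1.47 to 1.29.

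Between mouse groups the call of Il18r1 held in 13 of 17 alternatives and that of Il12rb1 in 8 of 17. Without WT replicate 2 and Glut1Tg replicate 1 the direction turned for Il12rb2 (-0.21), Il27ra (0.33), Ifngr1 (0.0439) and Il1rl1 (1.15). The mouse group term then compares WT libraries only. Leaving out Glut1Tg replicate 3 as well gave the same values (-0.21, 0.33, 0.0439 and 1.15) for that reason, and is not a further check of direction. When 1 library was left out, Il27ra ranged from -0.14 to 0.19 and Il1rl1 from -2.16 to 0.60. With DESeq2 Il12rb2, Il6st and Il21r also passed. The cause of these changes was not tested.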
